A study of Mus musculus with 2931 samples.

Results

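The genes described here are 10 immediate early and shear response genes of the mouse lung endothelium: Fos, Fosb, Jun, Junb, Atf3, Egr1, Nr4a1, Klf2, Klf4 and Apold1. They are 10 of the 18072 genes in the table and were found by their symbols. The list was drawn up with earlier results of these data known, and its genes were selected on measured values of these cells; which comparison they were selected on is not recorded. Counts of called members are therefore given as descriptions, each beside the share of all genes that edgeR called in the same comparison. Some counts under alternative analyses, in the last section, lack that share. The cells came from distal lung of 10 mice and were sorted into plates, and the RNA of each cell was sequenced on its own with a Tn5 transposase method. The labels place 2 mice, a female and a male, in each of 5 groups: embryonic day E18.5 (591 cells), postnatal day P1 (550 cells), P7 (555 cells) and P21 (707 cells) under normal conditions, and P7 after hyperoxia, an injury by raised oxygen (528 cells). Strain, genotype and oxygen level are not given in the sources used here, and the labels do not say whether a mouse name is 1 animal or a pool. P-values between days and oxygen groups therefore measure the spread between these 2 mouse names per group. Those between cell classes or sort gates, where the mouse was kept as a term, measure the spread of differences within mouse names.

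Immediate early genes are transcribed quickly after a stimulus without the need for newly made protein, and many of their products are transcription factors. FOS and JUN family proteins pair to form the AP-1 transcription factor. In endothelium, laminar shear stress signals through a MEK5 and ERK5 kinase cascade to MEF2 factors, which drive Klf2 and Klf4, a pair of factors known for anti-inflammatory and antithrombotic gene programmes. Many of these genes also respond to the enzymes and handling used to free cells from a tissue. These data hold no sample that was spared that step, so how much of each level it accounts for was not tested.

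The promoters are shown for the letters that some of the members have in common there, one of them rare among all genes and the others frequent. RefSeq (GRCm38.p6) windows from 250 bases before to 50 bases after the start were at hand for 9 of the 10 members, all except Egr1. A MEF2 site, searched by name on both strands, was matched in 3 of these 9 windows, in Jun, Atf3 and Klf2, against 0.557% of all 32851 windows. The letters TATAAA were matched in 3 of 9, in Fos, Junb and Apold1, against 13.6% of all windows. The letters TGACG, which are part of the longer site TGACGTCA that CREB and ATF factors bind, were matched in 8 of 9, against 20.8% of all windows. The whole TGACGTCA, the CArG box of serum response factor and the AP-1 site were matched in 0 of 9, against 1.79%, 1.63% and 5.20% of all windows. A match describes letters only, and sites outside these windows were not searched. The 4 stretches below each hold 100 bases upstream of the start, 5′ to 3′ on the gene's strand, with the TATA box of Fos and the MEF2 site of the others in capitals.
Fos, chr12:85473790-85473889, plus strand: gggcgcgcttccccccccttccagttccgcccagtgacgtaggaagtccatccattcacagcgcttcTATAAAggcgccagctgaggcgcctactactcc
Jun, chr4:95052223-95052322, minus strand: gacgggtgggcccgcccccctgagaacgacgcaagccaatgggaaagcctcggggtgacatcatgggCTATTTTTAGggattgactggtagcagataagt
Atf3, chr1:191183346-191183445, minus strand: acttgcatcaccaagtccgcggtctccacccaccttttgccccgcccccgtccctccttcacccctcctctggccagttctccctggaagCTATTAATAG
Klf2, chr8:72318899-72318998, plus strand: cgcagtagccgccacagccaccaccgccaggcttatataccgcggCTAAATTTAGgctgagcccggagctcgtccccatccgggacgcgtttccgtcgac

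The 2931 cells carried between 42095 and 2967985 reads, with a median of 621406. The median per mouse was lowest in the P7 male (188609.5 reads) and highest in the P7 female (928377 reads). The levels below are CPM, a gene's reads relative to all reads of a sum, for reads summed over the CD31-gate cells of 1 mouse and 1 endothelial class, where the mouse had at least 8 such cells. CD31 is the endothelial surface protein used for sorting. Classes follow the submitters' subtype labels, with the early and late Car4- capillary labels joined. How the labels were assigned is not given in the sources used here, and if it was from these counts, a test between labels shows only the size of a difference against its spread. Summed levels of 6 endothelial markers were between 6219 and 18337 CPM in every class of the postnatal mice in normal air, and 4 venous markers summed to between 1548 and 9535 CPM in the venous label. Changes were tested with edgeR's quasi-likelihood test, and a gene counts as called where its Benjamini-Hochberg adjusted p over all genes tested is under 0.05. Counts at an unadjusted p under 0.05 and by other tools are looser, and they are to be read against wider shares. Over the 21 comparisons, the unadjusted p was under 0.05 for 2.54 to 14.8% of all genes tested, and the share called was 0.585 to 14.1% with DESeq2 and 0 to 7.57% with limma.

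In Car4- capillaries, the general capillary cells of the lung, the median over the 6 postnatal mice in normal air was highest for Fos, at 599 CPM per kilobase of exon. Klf2 followed with 314, then Junb with 198, Jun with 173, Klf4 with 165, Nr4a1 with 122, Egr1 with 102 and Atf3 with 68.2 CPM per kilobase. Apold1, which encodes an endothelial protein known to be induced early after stimulation, had 23.3 and Fosb 3.30 CPM per kilobase. Jun and Junb overlap Junos and Prdx2 in the annotation. Whether counting used strand is not stated, so reads of these overlapping genes cannot be told apart.

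**Figure D1:**
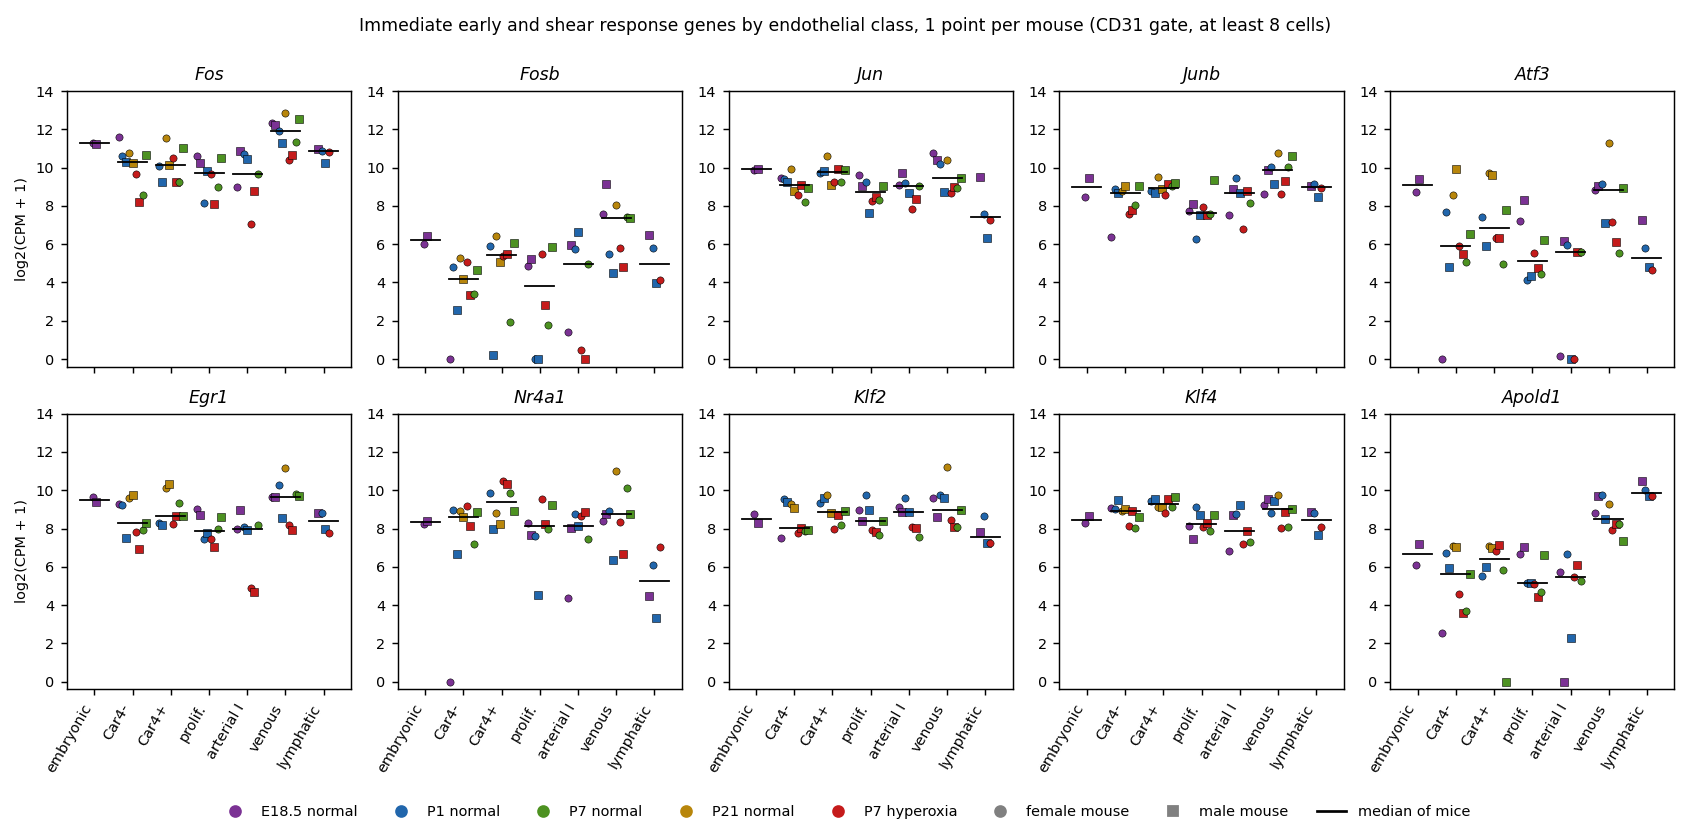
Levels of the 10 members as log2(CPM + 1) in 7 endothelial classes, with 1 point per mouse having at least 8 CD31-gate cells; colour is the group, shape the sex, and the black bar the median of mice. Fos and Apold1 stand high in the venous class, and Apold1 is high in all 4 lymphatic sums, between 832 and 1418 CPM.

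Median levels were compared among the classes with at least 2 postnatal mice in normal air. Venous endothelium carried the highest for Fos, Fosb, Junb, Egr1, Atf3, Klf2 and Nr4a1. It was set against Car4- capillaries of the same mice over 5 mice, each mouse's cells being of 1 sequencing run. All 10 members were higher and 3 were called (Fos, Egr1 and Junb), where 1.01% of all genes were called. The members' median log2 change was 1.49, against -0.17 over all genes tested.

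Fos, an AP-1 subunit, stood in venous cells at 3891 and 2524 CPM in the P1 female and male, at 2639 and 5995 CPM in the P7 female and male and at 7487 CPM in the P21 female. In Car4- capillaries of the same mice it stood at 1552, 1268, 375, 1619 and 1729 CPM. The venous values lay above every Car4- value, and the log2 change was 1.87 (SE 0.29, 3.64-fold, adjusted p = 0.00137). Junb, another AP-1 subunit, stood in venous cells at 1066, 559, 1038, 1570.2 and 1745 CPM and in Car4- capillaries at 474, 409, 265, 528 and 436 CPM, in the same order of mice. These values did not overlap either, and the log2 change was 1.49 (SE 0.33, adjusted p = 0.0247). The share of all genes that separate as Fos and Junb do was not counted. Egr1, a zinc finger factor, stood in venous cells at 1228, 379, 903, 835 and 2331 CPM and in Car4- capillaries at 606, 178, 243, 311 and 775 CPM. The ranges overlapped between mice, but the venous value was the higher within each of the 5 mice, and the log2 change was 1.49 (SE 0.28, adjusted p = 0.00723).

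These 3 calls did not rest equally on the mice. Fos was called in each of 13 alternative analyses. The Egr1 call was lost without the P21 female (adjusted p = 0.0616) and without the P7 female (0.0648). The Junb call was lost in 4 of the 6 analyses that left out 1 mouse, without the P21 female (0.159), the P21 male (0.0538), the P7 female (0.168) or the P7 male (0.116), and also with cells of all gates (0.0713).

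Apold1 stood in venous cells at 859, 356, 295, 163 and 625 CPM, and in Car4- capillaries at 105, 60.4, 12, 48.1 and 134 CPM. All venous values were above all Car4- values, a separation whose share among all genes was not counted. With a log2 change of 2.87 (SE 0.78) Apold1 was not called (adjusted p = 0.0882). Atf3, a stress-responsive factor of the ATF family, differed by 1.99 (SE 0.67, adjusted p = 0.201) on the log2 scale, and Fosb by 2.89 (SE 1.13, adjusted p = 0.306). For the shear-induced factors the log2 differences were 0.80 for Klf2 (SE 0.28, adjusted p = 0.219) and 0.30 for Klf4 (SE 0.27, adjusted p = 0.908). Jun differed by 0.45 (adjusted p = 0.589) and the nuclear receptor gene Nr4a1 by 1.08 (adjusted p = 0.602). Nr4a1 was the higher in venous cells in 2 of 5 mice and Klf4 in 3 of 5.

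The mice outside this test were set within themselves, with no test. In the E18.5 mice, venous cells against nonproliferative embryonic endothelium gave log2 ratios of 1.00 and 1.01 for Fos and of 2.77 and 2.51 for Apold1, female first. In the hyperoxia mice, venous cells against Car4- capillaries gave 0.76 and 2.49 for Fos and 3.41 and 4.76 for Apold1. For Egr1 the 4 ratios ran from -0.03 to 1.00 and for Junb from 0.18 to 1.56. Fos, Junb and Apold1 were thus higher in venous cells of all 4 further mice, and Egr1 in 3. Markers of other cell types, 15 genes of epithelium, mesenchyme and blood, summed to between 14 and 68.2 CPM in the venous sums and between 51.1 and 256 CPM in Car4- sums. Sftpb and Hba-a1 were at 0 reads in all 5 venous sums, but Sftpb was also at most 0.0994 CPM in Car4- sums. Some of the markers reached higher in venous sums. Col1a2 went up to 23.8 CPM there against 5.12 CPM in Car4- sums, and Col1a1 up to 14 against 5.3 CPM.

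Venous cells also held a read of more of the members per cell than Car4- capillaries. After each cell was thinned to 50000 reads, the median venous cell carried a read of 7 to 10 of the 10 members, depending on the mouse. The median Car4- cell carried 1 to 6 of them, and the value of 1 came from a sum of 13 cells of the E18.5 female. Medians ran from 4 to 8 in Car4+ capillaries and from 5 to 7.5 in lymphatic cells, overlapping the venous range. Fos had a read in 75 to 94.4% of venous cells of the mice in the test and in 29.9 to 52.9% of Car4- cells of the postnatal normal mice. A venous cell with at least 8 members was most frequent in the P7 male, at 82.6% of its cells. The higher venous sum of Fos thus came with a larger share of cells holding a read.

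**Figure D2:**
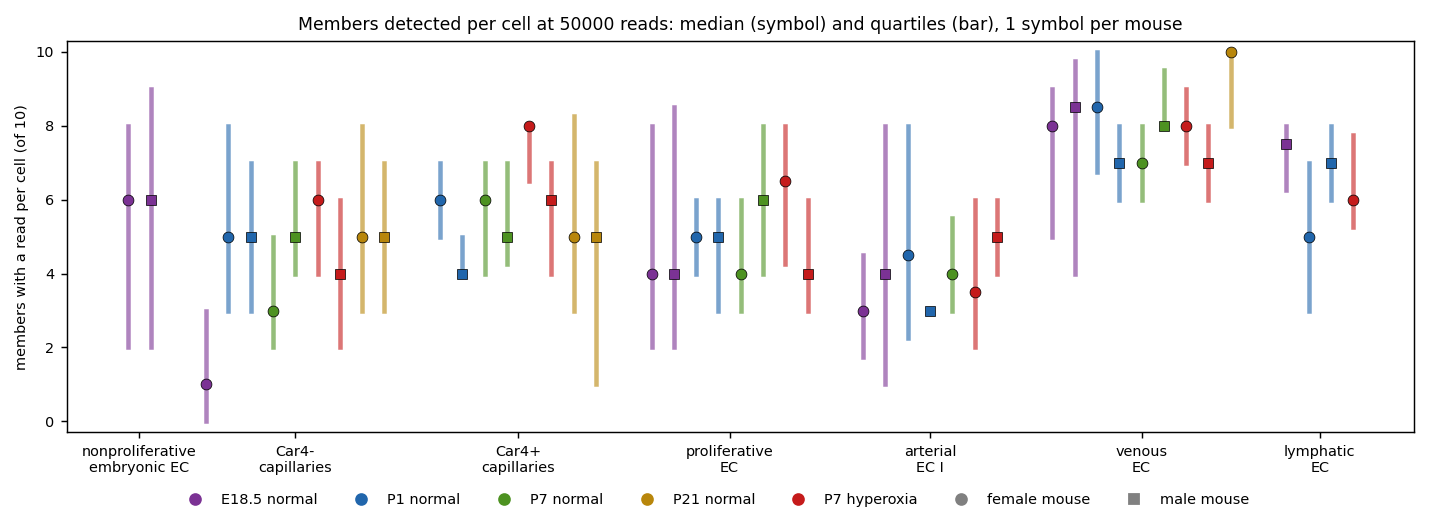
Number of the 10 members with at least 1 read per cell, after thinning to 50000 reads, by class; each symbol is the median of 1 mouse and its bar the quartiles over that mouse's cells. Venous medians run from 7 to 10, and Car4- medians of the postnatal mice lie below them at up to 6.

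Lymphatic endothelium differed from Car4- capillaries in both directions. The test rests on the P1 mice, whose 26 and 13 lymphatic cells passed the minimum. Here 2 of 10 members were called, Apold1 as higher and Jun as lower, where 3.39% of all genes were called. The members' median log2 change was -0.26, against -0.11 over all genes.

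Apold1 stood in lymphatic cells at 1025 CPM in the P1 female and 834 CPM in the P1 male, against 105 and 60.4 CPM in their Car4- capillaries. The log2 change was 3.79 (SE 0.96, 13.8-fold, adjusted p = 0.0286). Outside the test, the lymphatic cells of the E18.5 male held 1418 CPM and those of the hyperoxia female 832 CPM. All 4 sums thus lay above the highest Car4- sum of any mouse, 134 CPM, and the share of genes that do so was not counted. A read of Apold1 was found in 80.8 to 100% of lymphatic cells, depending on the mouse, and in 3.8 to 27.7% of Car4- cells. The call was lost in 5 of the 6 analyses without 1 mouse, at adjusted p between 0.0582 and 0.291, and held without the P7 male.

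Jun, the main partner of FOS in AP-1, stood in lymphatic cells at 191 and 79.3 CPM against 689 and 608 CPM in Car4- capillaries of the P1 mice. Both lymphatic values were the lower, and the log2 change was -2.21 (SE 0.38, 4.63-fold lower, adjusted p = 0.000995). The lymphatic cells of the E18.5 male held 730.1 CPM of Jun, close to the Car4- values, and its ratio to embryonic endothelium was -0.43 on the log2 scale. Those of the hyperoxia female held 152 CPM, with a ratio of -1.32 to its Car4- capillaries. Nr4a1 stood at 66.5 and 8.99 CPM in lymphatic cells of the P1 mice and was not called (log2 change -2.93, SE 0.90, adjusted p = 0.0875). Its ratio was also negative in the E18.5 male (-3.99) and in the hyperoxia female (-2.16). Postnatal normal lymphatic sums under the minimum of 8 cells went both ways. Above their Car4- values were the P7 male (5 cells, 715 CPM of Nr4a1 and 1083 of Jun) and the P21 female (3 cells, 1241 and 1530 CPM). Below them were the P7 female and the P21 male, with 1 cell each. Klf2 stood at 407 and 151 CPM against 757 and 658 CPM (log2 change -1.29, SE 0.40, adjusted p = 0.0961). Fos, at 1899 and 1210.2 CPM, differed by 0.53 (SE 0.38, adjusted p = 0.678) and was the higher in lymphatic cells in 1 of the 2 mice.

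Car4+ capillaries, the large cells of the gas exchange surface, showed smaller differences from Car4- capillaries over 6 mice. edgeR called 0 of 10 members, where 3.05% of all genes were called. At an unadjusted p under 0.05 there were 3 (14.8% of all genes), while 1 passed in DESeq2 and 0 in limma. All 10 fitted changes were positive, with a median of 0.61 against -0.35 over all genes. Jun was the nearest to a call (log2 change 0.82, SE 0.23, adjusted p = 0.0519) and was the higher in Car4+ cells in 6 of 6 mice, as was Klf4 (log2 change 0.69, SE 0.25, adjusted p = 0.150). Fos differed by 0.16 (SE 0.27) and was the higher in 3 of 6 mice.

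Proliferative and arterial cells gave no member call. Against Car4- capillaries, edgeR called 0 of 10 members in proliferative endothelium over 4 mice, where 0.472% of all genes were called, and none had an unadjusted p under 0.05 (8.58% of all genes) or was called by DESeq2 or limma. In arterial endothelium I, over 3 mice, edgeR called 0 of 10, where 0.303% of all genes were called. Here 1 member had an unadjusted p under 0.05 (14.2% of all genes), while 1 passed in DESeq2 (14.1% of all genes) and 0 in limma. That member was Fosb, at 51.9, 97.7 and 30.4 CPM in the P1 female, P1 male and P7 female against 27, 4.83 and 9.4 CPM in their Car4- capillaries (log2 change 3.57, SE 1.31, adjusted p = 0.253). In mice outside the test the order was the reverse, with 1.63 and 60.3 CPM in arterial cells of the E18.5 mice against 64.6 and 85.6 CPM in embryonic endothelium. In the hyperoxia mice Fosb was at 0.374 and 0 CPM in arterial cells against 33 and 9.3 CPM in Car4- capillaries. Klf2, known as a shear-induced gene, stood in arterial cells at 767, 462 and 188 CPM in those mice, against 757, 658 and 234 CPM in Car4- capillaries. The fitted change was 0.00 (SE 0.32).

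**Figure D3:**
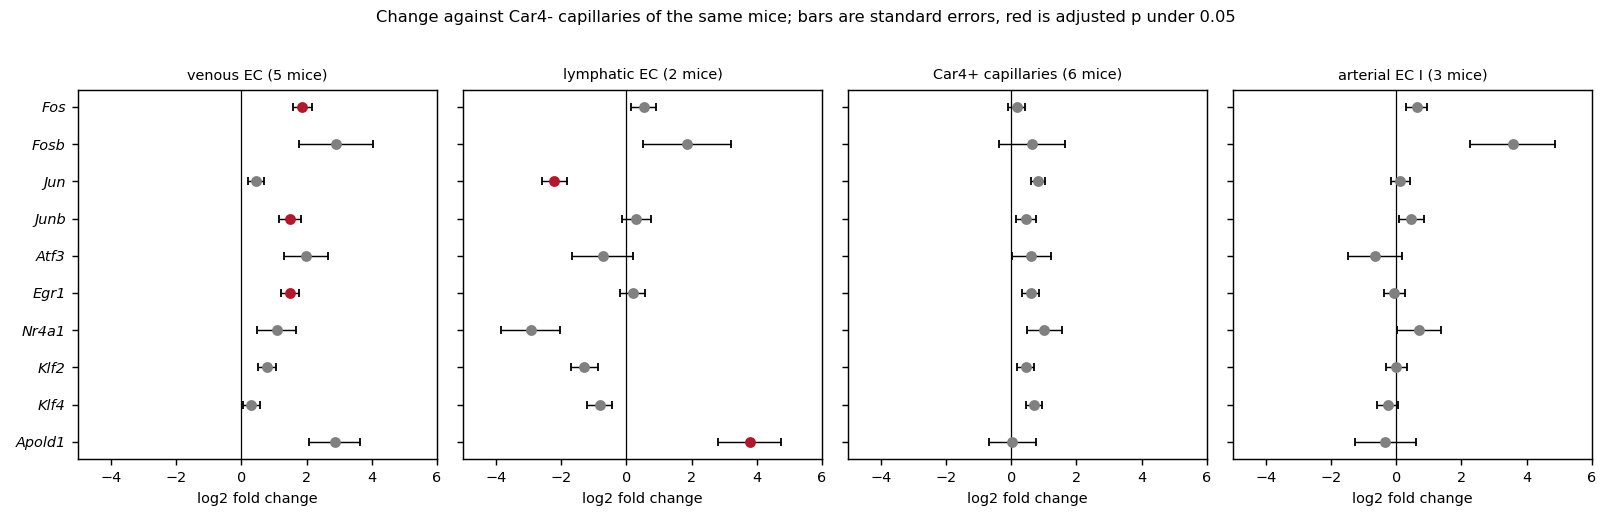
Log2 fold change of each member in 4 classes against Car4- capillaries of the same postnatal normal air mice; points are edgeR estimates, bars standard errors, and red marks an adjusted p under 0.05. Fos, Egr1 and Junb are red in the venous panel and Apold1 and Jun in the lymphatic panel, with none in the Car4+ and arterial panels.

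Around birth no member was called. Nonproliferative embryonic endothelium of E18.5 was set against Car4- capillaries of P1, and edgeR called 0 of 10 members, where 0.377% of all genes were called. There were 3 with an unadjusted p under 0.05 (8.86% of all genes), while 1 passed in DESeq2 and 0 in limma. Fosb stood at 64.6 and 85.6 CPM at E18.5, female first, against 27 and 4.83 CPM at P1. Atf3 stood at 424 and 683 CPM against 203 and 27.1 CPM, and Klf2 at 434 and 306 CPM against 757 and 658 CPM. The values did not overlap for any of these 3 genes, but the share of all genes without overlap was not counted. The log2 changes from P1 to E18.5 were 2.29 for Fosb (SE 0.80, adjusted p = 0.438), 2.33 for Atf3 (SE 0.72, adjusted p = 0.324) and -1.02 for Klf2 (SE 0.37, adjusted p = 0.448). In the female pair, which shares a sequencing run, the log2 ratios were 1.26, 1.06 and -0.80.

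Proliferative endothelium could be followed within 1 label across birth. From E18.5 to P1, edgeR called 0 of 10 members, where 0.00768% of all genes were called. There were 4 with an unadjusted p under 0.05 (7.35% of all genes), while 2 passed in DESeq2 and 0 in limma. Atf3 stood at 147 and 314 CPM at E18.5 and at 16.5 and 19.4 CPM at P1 (log2 change -3.60, SE 0.78, adjusted p = 0.306), and its ratio in the run-matched female pair was -3.15. Fosb stood at 28.3 and 35.9 CPM at E18.5 and had 0 reads in both P1 mice. Those sums hold 13 and 9 cells, 22 in all, too few to bound the share of cells with a read closely. At E18.5 a read was found in 15.8% and 21.7% of cells, and the shares were not tested between the days. Of the other immediate early genes, Gadd45g, a growth arrest gene, was called as lower at P1 (adjusted p = 0.0238), with 181 and 148 CPM at E18.5 and 0 reads in the same 22 cells. From P1 to P7, edgeR called 0 of 10 in this label, where 0% of all genes were called. There were 3 with an unadjusted p under 0.05 (9.85% of all genes), while 2 passed in DESeq2 and 0 in limma. In venous endothelium from E18.5 to P1, edgeR called 0 of 10, where 0.00812% of all genes were called, with 1 at an unadjusted p under 0.05 (8.61% of all genes), 1 called by DESeq2 and 0 by limma. That gene was again Fosb, at 189 and 567 CPM at E18.5 and at 43.5 and 22 CPM at P1 (log2 change -3.66, SE 0.72, adjusted p = 0.174). Fosb was thus the lower at P1 in both labels. From P1 to P7, edgeR called 0 of 10 in venous endothelium, where 0% of all genes were called, with 2 at an unadjusted p under 0.05 (3.15% of all genes) and 0 by DESeq2 and limma.

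Car4- capillaries were followed from P1 to P21. From P1 to P7, edgeR called 0 of 10 members, where 0% of 14559 genes were called. There were 3 members with an unadjusted p under 0.05 (9.97% of all genes), while 1 passed in DESeq2 and 0 in limma. Klf2 stood at 757 and 658 CPM at P1, at 234 and 239 CPM at P7 and at 628 and 531 CPM at P21, female first. Both P7 values were below all 4 others, and the share of all genes that do so was not counted. The log2 change to P7 was -1.69 (SE 0.37, adjusted p = 0.466), and that from P7 to P21 was 1.42 (SE 0.36, adjusted p = 0.163). Klf4 stood at 523 and 722 CPM at P1, at 264 and 393 CPM at P7 and at 488 and 516 CPM at P21, and was likewise lowest in the P7 mice. The log2 change of Klf4 was -1.09 to P7 (SE 0.43, adjusted p = 0.480) and 0.76 from P7 to P21 (SE 0.43, adjusted p = 0.568). The P7 mice are those with the lowest and the highest median reads per cell, and P1 and P7 share no run, so day and run cannot be told apart in the step to P7.

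From P7 to P21, all 10 members had positive fitted changes in Car4- capillaries, with a median of 0.91 against 0.04 over all genes. edgeR called 0 of 10, where 0.213% of all genes were called. There were 5 with an unadjusted p under 0.05 (10.2% of all genes), while 4 passed in DESeq2 (4.58% of all genes) and 0 in limma. Atf3 stood at 32.8 and 90.8 CPM at P7 and at 378 and 967 CPM at P21. This was the largest change of a member (log2 change 3.66, SE 0.77, 12.6-fold, adjusted p = 0.0842). Apold1 stood at 12 and 48.1 CPM at P7 and at 134 and 131 CPM at P21 (log2 change 2.32, SE 0.59, adjusted p = 0.157), and Egr1 at 243 and 311 CPM and at 775 and 868 CPM (log2 change 1.72, SE 0.49, adjusted p = 0.228). For these 3 genes the P21 values lay above the P7 values, and the share of all genes that do so was not counted.

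The males of P7 and P21 share a sequencing run, and in that pair 5 of the 10 members were higher at P21. The log2 ratio was 3.41 for Atf3, 1.48 for Egr1, 1.44 for Apold1, 1.15 for Klf2 and 0.39 for Klf4. The AP-1 genes were slightly lower at P21 in this pair, with ratios of -0.41 for Fos, -0.46 for Fosb, -0.16 for Jun and -0.02 for Junb, with -0.23 for Nr4a1. Fos in Car4- capillaries at P7 was 375 CPM in the female and 1619 CPM in the male, a spread wider than the step to P21, where it was 1729 and 1216 CPM.

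Against P1, edgeR called 0 of 10 members at P21, where 0.33% of all genes were called, with 2 at an unadjusted p under 0.05 (11.9% of all genes), 1 by DESeq2 and 0 by limma. Atf3 was at 203 and 27.1 CPM at P1 (log2 change 2.75, SE 0.74, adjusted p = 0.204), and its ratio in the run-matched females was 0.89. Car4+ capillaries gave a like picture for Atf3, which stood there at 29.8 and 223 CPM at P7 and at 831 and 794 CPM at P21 (log2 change 2.97, SE 0.75, adjusted p = 0.592, run-matched males 1.83). In Car4+ capillaries edgeR called 0 of 10 from P7 to P21, where 0.0166% of all genes were called, with 2 at an unadjusted p under 0.05 (4.86% of all genes), 1 by DESeq2 and 0 by limma. From P1 to P7 edgeR called 0 of 10 in Car4+ capillaries, where 0% of all genes were called, and none had an unadjusted p under 0.05 (4.89% of all genes) or was called by DESeq2 or limma.

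Heat shock genes, a list kept as a sign of cell stress, were higher at P21 as well. All 12 listed genes were higher at P21 than at P7 in Car4- capillaries, and 4 were called, where 0.213% of all genes were called. Hspa1a, an inducible chaperone gene, was at 392 and 780 CPM in the P21 mice and at 1.16 and 0.0875 CPM in the P7 mice. Hspb1 rose by 3.60 (SE 0.65, adjusted p = 0.0434) and Hsp90aa1 by 2.73 (SE 0.50, adjusted p = 0.0441) on the log2 scale, and the fourth was Hspa1b. In Car4+ capillaries Hspa1a was one of the 2 genes called from P7 to P21 (adjusted p = 0.00354), at 1058 and 383 CPM at P21 and at 0.0278 and 0 CPM at P7. The summed level of markers of other cell types in Car4- sums was also higher at P21 (182 and 256 CPM) than at P7 (51.1 and 137 CPM). The part of either in the values of Atf3 was not tested.

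**Figure D4:**
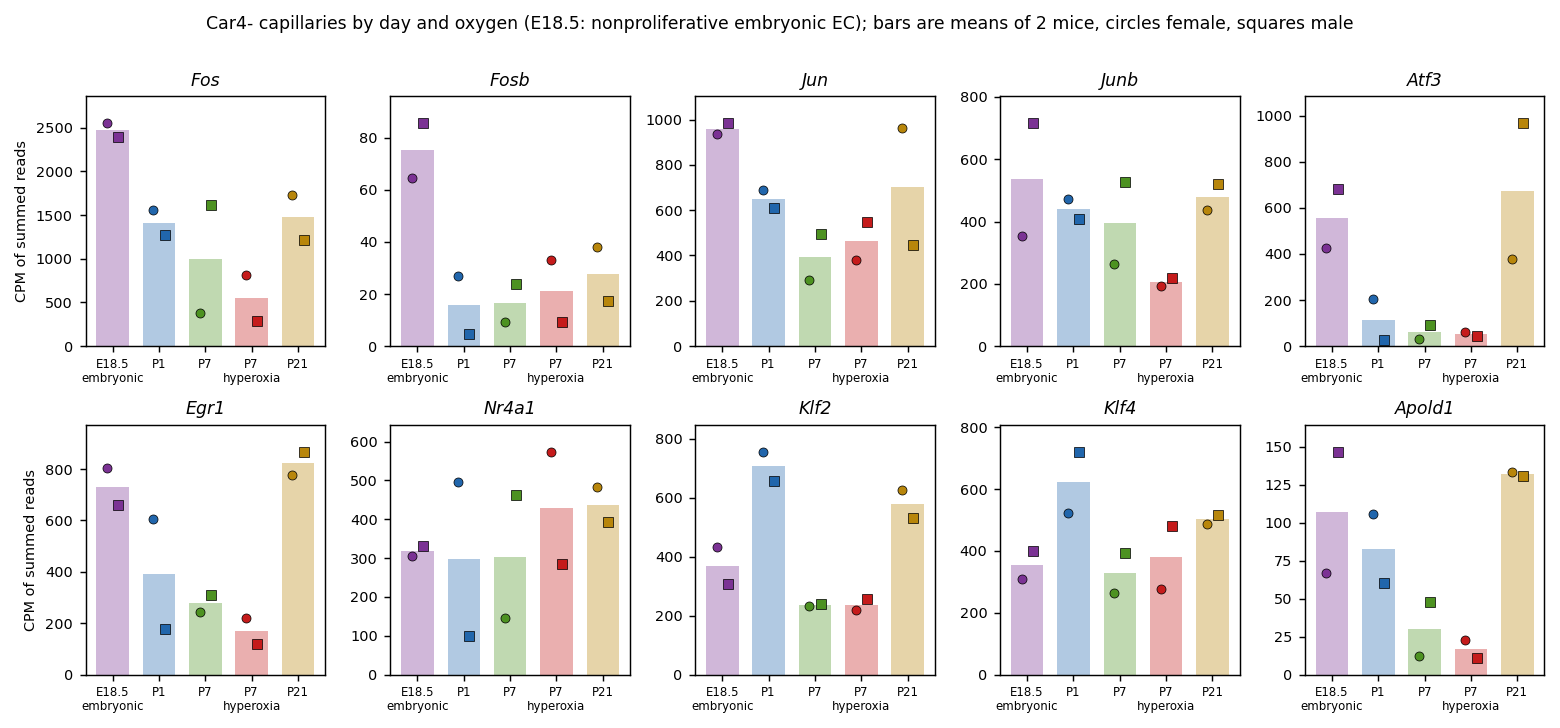
CPM of each member in Car4- capillaries by day and oxygen, with nonproliferative embryonic endothelium shown for E18.5; bars are means of 2 mice, circles females and squares males, and each panel has its own scale from 0. Atf3 is high at E18.5 and P21 and between 27.1 and 203 CPM at P1 and P7, and Klf2 is lowest in the P7 groups.

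Hyperoxia at P7 gave no member call in any of 4 labels. In Car4- capillaries, edgeR called 0 of 10 members, where 0.0343% of all genes were called, with 1 at an unadjusted p under 0.05 (4.78% of all genes) and 0 by DESeq2 and limma. That gene was Junb, at 193 and 218 CPM after hyperoxia and at 265 and 528 CPM in normal air, female first (log2 change -0.94, SE 0.40, adjusted p = 1.00). Klf2 stood at 218 and 257 CPM after hyperoxia, overlapping the 234 and 239 CPM in normal air. Fos stood at 810.4 and 289 CPM after hyperoxia and at 375 and 1619 CPM in normal air, so that the female and the male pair differed in opposite directions.

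In venous endothelium, 9 of 10 members were lower after hyperoxia, with a median log2 change of -1.31 against 0.01 over all genes. edgeR called 0 of 10, where 0% of all genes were called. There were 5 with an unadjusted p under 0.05 (Fos, Fosb, Junb, Egr1 and Nr4a1), as had 2.69% of all genes, while 0 passed in DESeq2 and in limma. Fos stood at 1376 and 1629 CPM after hyperoxia and at 2639 and 5995 CPM in normal air (log2 change -1.48, SE 0.52, adjusted p = 1.00). Egr1 stood at 294 and 238 CPM after hyperoxia and at 903 and 835 CPM in normal air (log2 change -1.71, SE 0.55, adjusted p = 1.00). Fosb stood at 54.8 and 26.6 CPM after hyperoxia and at 173 and 164 CPM in normal air (log2 change -2.07, SE 0.67, adjusted p = 1.00).

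For all 5 of those genes, which were picked by their unadjusted p, both hyperoxia values were below both normal air values. How many of all genes separate in this way was not counted. In the males, which share a sequencing run, the log2 ratios were -1.88 for Fos, -1.81 for Egr1, -2.63 for Fosb, -1.29 for Junb and -2.09 for Nr4a1. The exception was Apold1, at 239.7 and 304 CPM after hyperoxia and at 295 and 163 CPM in normal air (log2 change 0.25, SE 0.56). These sums hold 23 and 30 cells after hyperoxia and 18 and 23 in normal air.

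In proliferative endothelium 9 of 10 members also had lower fitted levels after hyperoxia, and all 10 were lower in the run-matched male pair. Over all genes, 49.7% had positive fitted changes. The female pair, from different runs, went both ways. Fos stood there at 805 CPM after hyperoxia against 516 in normal air, and Nr4a1 at 744 against 252. Fosb, Atf3, Klf2 and Klf4 were also higher in that pair, while Jun (300 against 320 CPM) and Egr1 (174 against 253 CPM) were lower. edgeR called 0 of 10, where 0% of all genes were called, with 1 at an unadjusted p under 0.05 (Egr1, log2 change -1.08, SE 0.45), as had 2.54% of all genes, and 0 by DESeq2 and limma. In Car4+ capillaries edgeR called 0 of 10, where 0% of all genes were called, and none had an unadjusted p under 0.05 (3.26% of all genes) or was called by DESeq2 or limma. Nr4a1 stood in Car4+ capillaries at 1428 and 1302 CPM after hyperoxia and at 925 and 477 CPM in normal air, the opposite order to venous cells. Its log2 change there was 0.94 (SE 0.55, adjusted p = 1.00).

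**Figure D5:**
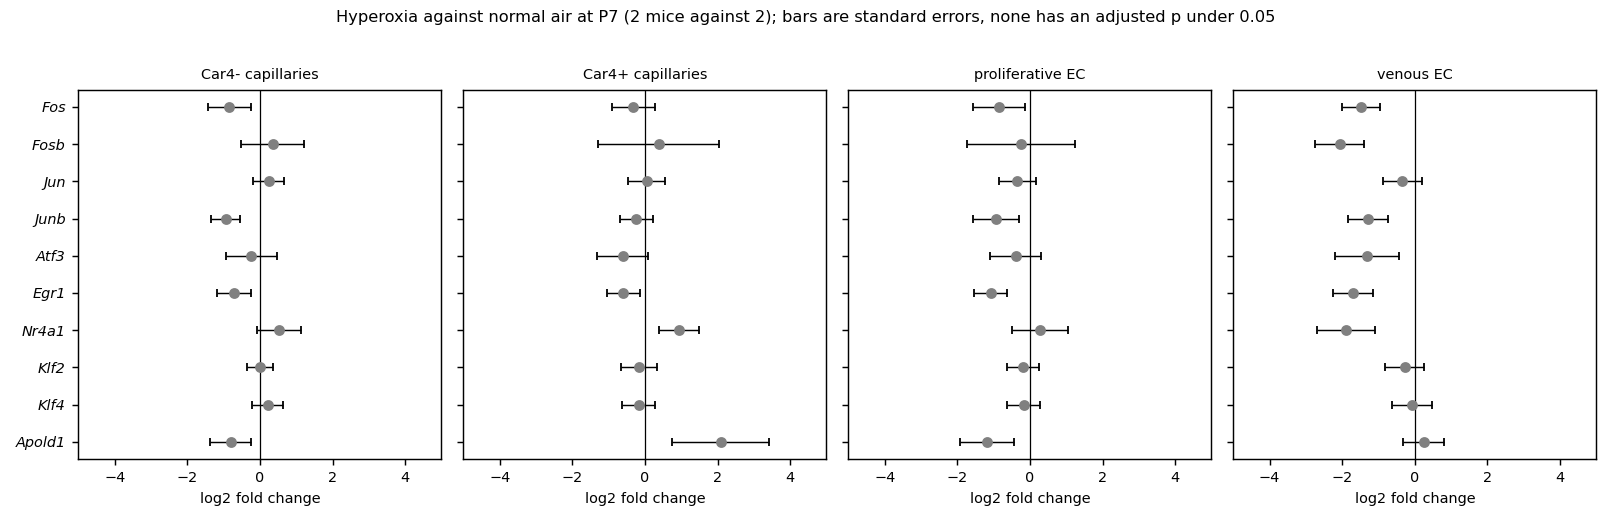
Log2 fold change of each member after hyperoxia against normal air at P7 in 4 labels; points are edgeR estimates over 2 mice against 2 and bars standard errors, and no point has an adjusted p under 0.05. In the venous panel 9 of 10 points lie below 0, and Nr4a1 lies above 0 in the Car4+ panel and below 0 in the venous panel.

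At P21 some capillary cells were collected through a gate labelled mesench, in the same mice but in other sequencing runs, so gate and run cannot be told apart. Each test between gates rests on 4 sums and leaves 1 residual degree of freedom. In Car4- capillaries edgeR called 0 of 10 members between the gates, where 0.00807% of all genes were called, with 2 at an unadjusted p under 0.05 (6.26% of all genes) and 0 by DESeq2 and limma. Egr1 stood at 775 and 868 CPM in CD31-gate cells and at 1794 and 1150 CPM in mesench-gate cells, female first. Nr4a1 stood at 482 and 392 CPM and at 1233 and 473 CPM. Both genes were higher through the mesench gate in both mice, each with a log2 change of 1.06 and an adjusted p of 0.726. In Car4+ capillaries edgeR called 0 of 10, where 0% of all genes were called, with 1 at an unadjusted p under 0.05 (4.28% of all genes) and 0 by DESeq2 and limma. That gene was Atf3, at 831 and 794 CPM in CD31-gate cells and at 1772 and 1963 CPM in mesench-gate cells (log2 change 1.31, SE 0.35, adjusted p = 0.871).

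Other genes of these pathways were taken from fixed lists. Of 31 other immediate early genes tested, 23 were higher in venous than in Car4- cells and 2 were called, both higher, where 1.01% of all genes were called. These were Btg2, an antiproliferative gene (log2 change 1.31, SE 0.29, adjusted p = 0.0251), and Zfp36, whose product shortens the life of cytokine mRNAs (log2 change 1.73, SE 0.42, adjusted p = 0.05, just under the threshold). Each was called in 7 of 13 alternatives. The list median was 0.78 against -0.17 over all genes. In the lymphatic label, where 3.39% of all genes were called, 3 of the 31 were called, all lower: Ier2 (log2 change -1.29), Ier3 (-2.83) and Csrnp1, which had at most 0.324 CPM in the lymphatic sums. At P21 against P1 in Car4- capillaries 1 of 31 was called (0.33% of all genes), Cyr61, at 357 and 673 CPM against 123 and 47.5 CPM. Of 13 upstream kinases and transcription factors tested, edgeR called 0 in the venous and 0 in the lymphatic contrast, with 2 in each at an unadjusted p under 0.05. Among all 14839 genes tested, 1525 had an unadjusted p under 0.05 in the venous contrast and 1871 in the lymphatic contrast.

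Of 14 genes of shear sensing and the KLF2 pathway, 5 were called in the lymphatic label, beside 3.39% of all genes. Cdh5 (log2 change -1.45), Pecam1 (-1.32), Heg1 (-2.00) and Mef2a (-1.52) were lower and Kdr (0.82, called in 6 of 13 alternatives) was higher. CDH5, PECAM1 and KDR form a junctional complex known to sense shear, and MEF2A is a factor upstream of Klf2. In the venous label (1.01% of all genes called) Cdh5 alone of the 14 was called, as lower (log2 change -1.18, SE 0.19, adjusted p = 0.00203), and in Car4+ capillaries (3.05% of all genes called) Kdr alone, as higher (2.39, SE 0.15, adjusted p = 6.68e-09). Of 10 genes known to respond to KLF2 or flow, 3 were called lower in the lymphatic label (3.39% of all genes called): Thbd, which encodes the anticoagulant receptor thrombomodulin (log2 change -3.08), S1pr1 (-1.15) and Edn1. In venous cells edgeR called 0 of those 10, with 2 at an unadjusted p under 0.05, as had 1525 of all 14839 genes tested. In Car4+ capillaries, where 3.05% of all genes were called, 3 of the 10 were called, S1pr1 as higher (0.75) and Tek (-2.58) and Edn1 as lower, and of the other immediate early genes Trib1 and Myc were called as lower.

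Within Car4- capillaries the members fell into pairs of unlike tightness. Over the cells of each of 8 postnatal mice, the Spearman correlation of Junb with Egr1 had a median of 0.60 (0.47 to 0.80 over mice). Fos with Junb had a median of 0.60 (0.47 to 0.78), and Fos with Egr1 of 0.57 (0.43 to 0.83). Klf2 with Klf4 had a median of 0.34 (0.14 to 0.53), while Fos with Klf4 had 0.12. These are descriptions over at least 108 cells per mouse, thinned to 50000 reads, and cells of a mouse share its library preparation.

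Across 48 sums of mouse and class, the most alike genes outside the list were sought among 7121 genes by Pearson correlation of log2(CPM + 1). The sums share mice and classes. Among the members themselves Fos was more alike Egr1 (r = 0.75), Fosb (0.71) and Junb (0.68) than any gene outside the list. Of those outside it, Zfp36 was among the nearest for Atf3 (r = 0.80), Junb (r = 0.77) and Fosb (r = 0.70). Still among genes outside the list, nearest to Fos was Ppp1r15a (0.64), to Egr1 Gem (0.64), to Nr4a1 Rnf114 (0.82), to Klf2 Ly6e (0.64) and to Klf4 Myl6 (0.60). Jun was nearest to the endothelial gene Emcn (0.60) among genes outside the list, and Apold1 to Tshz2 (0.73).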

How the data were processed

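The deposited table holds read counts per gene for each cell, made by the authors. The submitters' processing notes name STAR 2.5.2b, HTSeq 0.10 and the build GRCh38. That is a human build for mouse cells, so the build used for counting is unclear, and the authors' filters are not given in the sources used here. The table lacks mitochondrial, ribosomal protein and predicted (Gm) symbols, so CPM is relative to the other genes. Sort gates come from the cell titles, and group, mouse, sequencing run and subtype from the labels.

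Counts were summed per mouse and class over CD31-gate cells (at least 8 cells per mouse) and tested in edgeR 4.0.16 (TMM, filterByExpr, quasi-likelihood F test, Benjamini-Hochberg over all genes tested). Contrasts between classes and between gates kept the mouse as a term. The code was tested on simulated data. DESeq2 1.42.0, limma 3.58.1 (log2(mean CPM + 1)), RLE scaling, no low count filter, 15 cells, all gates, thinning to 50000 reads, sex as a block and leaving out each mouse were alternatives. Shares of cells with a read use cells thinned to 50000 reads, which left out 11 cells. Gene positions and exon lengths are from GENCODE on GRCm38. No 2 cells held identical counts. Named genes are all 10 members, up to 4 called genes per list and comparison (mean of 20 CPM or more where higher), and genes from the 3 most alike each member outside the list. Kdr in the lymphatic label and Myc fall outside this rule and were named after their values were seen. The members and lists were chosen with earlier results of these data known.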

Additional observations from a re-analysis of the deposited data

Results flagged for a closer look

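Nr4a1 moved in opposite directions in different labels, with both mice of one group on one side of both mice of the other in each label. The 2 cases were picked for this pattern, and how many of all genes show it was not counted. The separation was narrow in proliferative endothelium, at 198 CPM in the E18.5 male against 192 CPM in the P1 female. After hyperoxia at P7 its mean was 1365 against 701 CPM in Car4+ capillaries, a log2 ratio of means of 0.96, and 214 against 766 CPM in venous endothelium, a log2 ratio of -1.84. From E18.5 to P1 its mean was higher at P1 in arterial endothelium I, at 359 against 139 CPM (log2 ratio 1.37), and lower at P1 in proliferative endothelium, at 107 against 258 CPM (log2 ratio -1.27). The difference between the labels was not tested in either case. The changes in Car4+ capillaries, venous endothelium and proliferative endothelium were not called within their labels, and that in arterial endothelium I was not tested.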

How the results depend on the processing

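Counts of called members depended on the tool and the mice more than on the scaling. Of 300 counts under an alternative, 246 stayed within 1.5 times of the value reported and 54 did not. DESeq2 counts are given with the share of all genes it called. It called 4 members in Car4- capillaries from P7 to P21 (4.58%) and 5 in the venous contrast (6.27%). In proliferative endothelium it called 2 from E18.5 to P1 (3.89%) and 2 from P1 to P7 (4.67%). It called 1 each in Car4- capillaries from P1 to P7 (1.92%) and P1 to P21 (5.18%), Car4+ capillaries from P7 to P21 (1.95%) and venous endothelium from E18.5 to P1 (4.32%). It also called 1 each in embryonic endothelium against P1 (3.47%), Car4+ capillaries against Car4- (11.5%) and arterial endothelium I (14.1%). Apart from the limma count, the counts that follow lack the share of all genes called in the same comparison and cannot be judged against it. With thinned cells the count was 6 in the venous and 4 in the lymphatic contrast and 1 in both capillary labels from P7 to P21. Without the low count filter it was 2 in proliferative endothelium from E18.5 to P1 and 1 there from P1 to P7, in venous endothelium from E18.5 to P1 and in both capillary labels from P7 to P21. For Car4+ against Car4- it was 1 with RLE scaling, 1 with all gates and 2 with 15 cells. For the lymphatic contrast it was 0 with 15 cells, 1 with all gates and 4 with limma (7.57% of all genes). Per comparison, all genes called numbered 0 to 670 with thinned cells and 2 to 488 without the low count filter. They numbered 0 to 506 with RLE scaling, 0 to 522 with all gates and 0 to 687 with 15 cells. Leaving out a mouse gave 1 to 3 in the venous and 1 to 2 in the lymphatic contrast, 0 to 3 and 0 to 2 in proliferative endothelium to P1 and to P7, and 0 to 1 in Car4- P7 to P21 and P1 to P21, Car4+ P7 to P21, Car4+ hyperoxia, venous E18.5 to P1, embryonic against P1 and Car4+ against Car4-. The cause was not tested. Among 51 log2 changes with an unadjusted p under 0.05, 0 changed sign in any alternative. Of all 210 changes, 81 did in at least 1 (largest size 1.31). RLE scaling moved the median of all genes by at most 0.13 (log2). Of 60 mean levels 1 moved by over 1 SD, and of 60 shares of cells 12. The contrasts between classes and between gates were paired by mouse, and leaving out the mouse term changed no count in the gate contrasts. Between days and oxygen groups, no paired analysis was possible because the mice differ and the labels carry no replicate numbers. Sex as a block changed no count there.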
